A study of Rattus norvegicus with 8 samples.

Results

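The cytochrome P450 genes of families 1 to 3 were followed in 3 kinds of hepatic cells cut from rat liver sections by laser microdissection (LMD). Members were all genes whose name on the array begins with Cyp1, Cyp2 or Cyp3 followed by a subfamily letter, which gave 45 gene names on 61 probes, of the 36174 gene names on 45598 probes of the whole array. A probe was tested if the scanner software marked its spot as well above background in 3 or more of the 7 complete scanner files, which 49 probes of 36 genes met. Levels are log2 signals from which the array's own 75th percentile was subtracted, so that a level of 0 lies at that percentile and a difference of 1 is a doubling.

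All samples came from livers of F344 rats that had received retrorsine, a plant alkaloid that blocks division of resident hepatocytes, and then a partial hepatectomy. The MH group (n = 2) holds mature hepatocytes of livers without a transplant. The control group (n = 3) holds clusters of small hepatocyte-like progenitor cells (SHPCs) of such livers, and the BM-MC group (n = 3) holds SHPC clusters of livers that received bone marrow-derived mesenchymal cells (BM-MCs) through the spleen. The labels give a dipeptidylpeptidase IV (DPPIV)-positive strain, whereas the methods describe female DPPIV-negative recipients, DPPIV-positive donor cells and DPPIV-positive animals that were male. The age of the recipients was not given in the sources used here, and all livers were taken at a single time after transplantation. MHs had met retrorsine and surgery too and are therefore no untreated hepatocytes. Clusters were recognised in hematoxylin-stained sections by their appearance, and the sources do not say which animal gave which sample. Samples may share an animal, so that p-values cover sample-to-sample spread alone, which may be technical, and can be too small.

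Microsomal P450 enzymes of families 1 to 3 oxidise drugs, pollutants, steroids and fatty acids. They draw electrons from NADPH through the reductase Por and carry heme, which the liver makes with Alas1 as the rate-limiting enzyme. Several are switched on by xenobiotic receptors, namely Cyp1 genes by the aryl hydrocarbon receptor (Ahr), Cyp2b genes by the constitutive androstane receptor (CAR, Nr1i3) and Cyp3a genes by the pregnane X receptor (PXR, Nr1i2). Most are concentrated in pericentral hepatocytes, around the central vein of the lobule. In the rat, several differ between the sexes because the pituitary releases growth hormone in pulses in males and more steadily in females.

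The 8 arrays lay on 1 slide. Both MH samples and control replicates 1 and 2 took the first set of 4 arrays, and control replicate 3 and the 3 BM-MC samples took the second, so that MHs and the BM-MC group share no set. Between 57.0% and 61.5% of spots were well above background, with marks on 19479 of 58717 spots for control replicate 2, whose scanner file stops early. BM-MC replicate 3 stood apart from the other BM-MC samples in several members, and some of the values that rest on it are given with and without it. All 7 hepatocyte markers tested (albumin, transferrin and others) were detected, with summed levels from 9.54 to 9.68 in MHs, from 9.61 to 9.90 in control SHPCs and from 9.45 to 9.80 in the BM-MC group. By gene, all 7 had a positive difference between control SHPCs and MHs, 2 of them at an unadjusted p under 0.05 (Tat 1.04 and Apoa1 0.73), and all 7 a negative one between the BM-MC and control groups, 0 of them at that p. The part of this shift in the P450 differences was not tested.

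The probes below read the members on which the results turn, and are shown because close relatives can share sequence. Each is written 5′ to 3′, and capitals mark the longest run of at least 15 bases shared with a probe of another member.

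Cyp2b2 (chr1:81358908-81358967, + strand): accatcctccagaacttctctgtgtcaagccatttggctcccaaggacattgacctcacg
Cyp3a2 (chr12:9517280-9517339, - strand): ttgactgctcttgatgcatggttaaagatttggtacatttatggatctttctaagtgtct
Cyp3a18 (chr12:9087179-9087238, - strand): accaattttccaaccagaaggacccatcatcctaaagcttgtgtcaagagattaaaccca
Cyp3a23/3a1 (chr12:9567141-9567200, - strand): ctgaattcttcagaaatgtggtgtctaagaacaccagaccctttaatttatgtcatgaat
Cyp3a9 (chr12:17204458-17204517, + strand): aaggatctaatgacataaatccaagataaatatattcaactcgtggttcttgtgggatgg
Cyp2d1 (chr7:120769703-120769762, - strand): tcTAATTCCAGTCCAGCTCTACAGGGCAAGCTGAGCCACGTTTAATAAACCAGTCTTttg
Cyp2d5 (chr7:120760436-120760495, - strand): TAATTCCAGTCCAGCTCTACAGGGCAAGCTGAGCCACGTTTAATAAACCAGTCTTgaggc

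Positions are those of the array annotation on build rn4. Of all pairs among the 61 probes of 60 bases, 3 shared a run of at least 15 bases, and 2 of these pairs were of different genes. Cyp2d1 and Cyp2d5 shared 55 bases, so that their values cannot be read as separate genes, and Cyp2a1 and Cyp2a2 shared 19. No Cyp3a probe shared such a run with another member. The array annotation lists the Cyp2b1 transcript beside Cyp2b2 for the Cyp2b2 probe, and its signal may come from either gene. No other probe carried the name Cyp2b1.

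**Figure D1:**
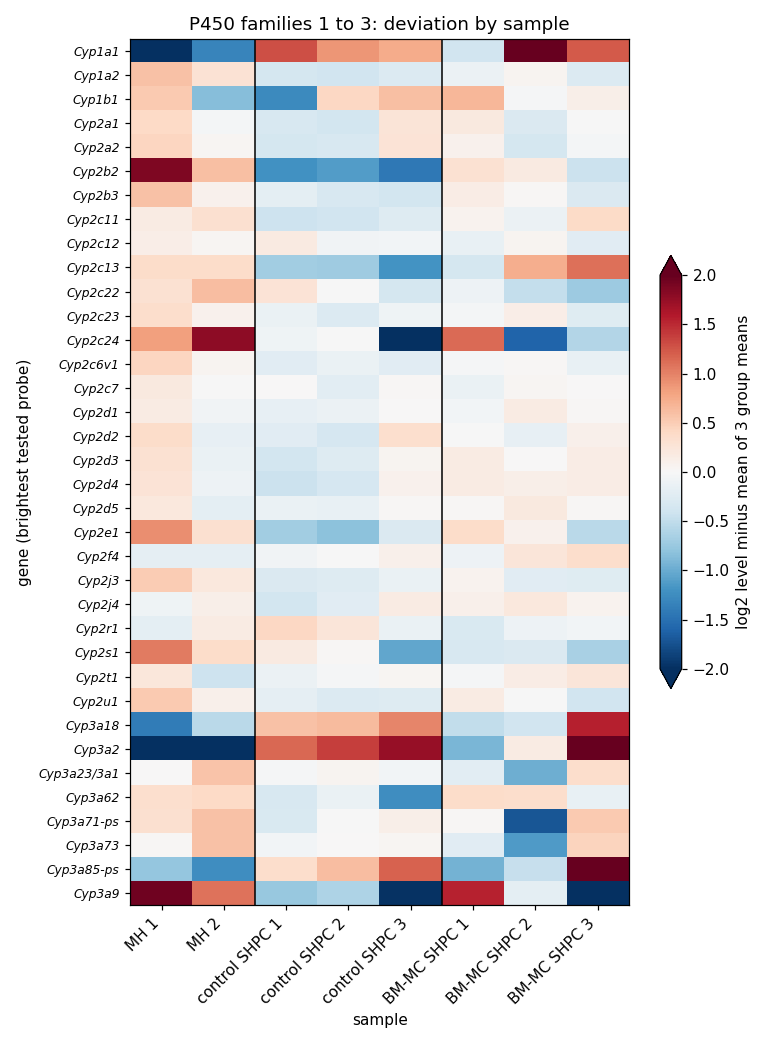
Each row is 1 of 36 tested P450 genes (brightest tested probe), each column a sample, and the colour gives the log2 level minus the mean of the 3 group means, with colours saturating at 2 in either direction. Cyp2b2 was high in both MH samples and low in all 3 control samples, while the column of BM-MC replicate 3 was highest for Cyp3a2, Cyp3a18 and Cyp3a85-ps and lowest for Cyp3a9.

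Most P450 genes varied little among the 8 samples, and a few varied strongly. The whole range over the samples was under 1 on the log2 scale for 20 of 36 genes and over 2 for 10. The median deviation of the 36 genes from the mean of the group means was 0.31 and 0.086 in the MH samples. It was -0.18, -0.14 and -0.024 in control SHPCs and -0.015, 0.018 and 0.013 in the BM-MC group. Within groups the median SD was 0.28 in MHs (n = 2), 0.22 in control SHPCs (n = 3) and 0.24 in the BM-MC group (n = 3). In the BM-MC group 7 genes had an SD over 1, and 5 of these 7 were Cyp3a genes or pseudogenes. Without BM-MC replicate 3 there were 4 (Cyp1a1, Cyp2c24, Cyp3a9 and Cyp3a71-ps), 2 of them Cyp3a.

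Control SHPCs were compared with MHs to ask how progenitor clusters differ from the hepatocytes of the same kind of liver. Of the members, Cyp2b2 fell, and most others lay lower without passing the adjusted threshold. Limma called 0 of 49 member probes higher and 1 lower (adjusted p under 0.05), where 0.917% of all 23111 probes tested were called higher and 0.216% lower. At an unadjusted p under 0.05, 3 member probes were higher and 19 (38.8% of 49) were lower, where 8.21% of all probes were higher and 11% lower. The lower count ran from 6 to 19 when single samples were left out. The difference was positive for 9 of 49 member probes, with a median of -0.37 beside -0.03 over all probes tested. The groups did not overlap for 27 of 49 member probes (55.1%), where 41.4% of all probes tested did not overlap. Captured tissue is bulk material, in which fewer cells of a type and less RNA per cell cannot be told apart.

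Cyp2b2, the classic phenobarbital-inducible P450 and a target of CAR, had levels of 2.79 and 1.53 in MHs, of -0.29, -0.20 and -0.50 in control SHPCs and of 1.22, 1.09 and 0.50 in the BM-MC group. The 3 control samples were the lowest of all 8 and did not overlap with either other group, and the BM-MC samples all lay below both MH samples. The difference between control SHPCs and MHs was -2.49 (standard error 0.37, adjusted p = 0.031, limma), a signal 5.61-fold lower in control SHPCs. Within the first set of 4 arrays it was -2.40. The call held in 13 of 23 alternative analyses, over which the difference ran from -3.12 to -1.86 and the adjusted p from 0.0055 to 0.21. It was lost without MH replicate 1 (adjusted p = 0.11), without any single control sample and without BM-MC replicate 2 (adjusted p = 0.062). It was lost as well with slide set as a block (-2.40, adjusted p = 0.063), with a replicate block, without the filter on dim probes, in a fit of only these 2 groups and by the methods' t-test.

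The receptor gene showed the same order of groups in the same fit. Nr1i3 had levels of 0.41 and -0.46 in MHs, of -2.20, -1.81 and -2.24 in control SHPCs and of -0.63, -0.72 and -1.58 in the BM-MC group. Again the 3 control samples were the lowest of the 8. The difference between control SHPCs and MHs was -2.06 (standard error 0.36, adjusted p = 0.049, limma), and that of the other Nr1i3 probe was -1.97 (adjusted p = 0.038). For the brighter probe the call held in 8 of 23 alternatives, with adjusted p from 0.013 to 0.27, and the difference ran from -2.50 to -1.63. Of the 10 tested genes on the list of xenobiotic receptors and their partners, 4 were higher and 6 lower in control SHPCs, and Nr1i3 alone passed the adjusted threshold. Nr1i2, which encodes PXR, differed by 0.34 (adjusted p = 0.36), and Ahr by -0.81 (adjusted p = 0.20).

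**Figure D2:**
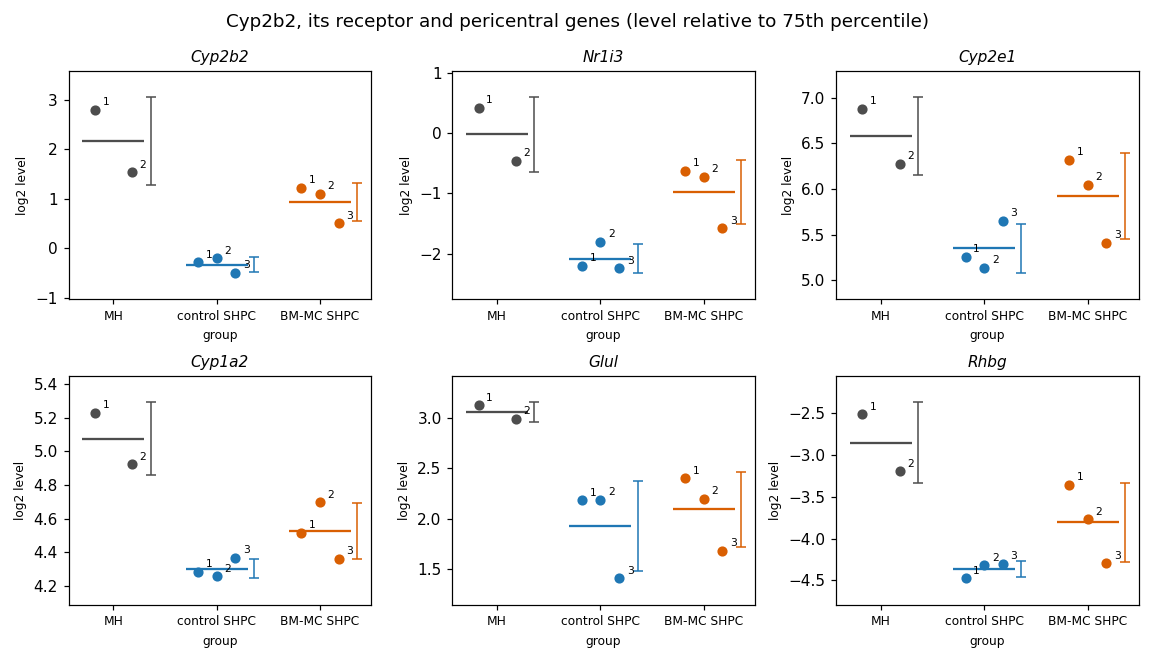
Each panel gives the log2 level of 1 gene by group, with points numbered by replicate, a line at the mean and a bar of 1 SD beside it. For Cyp2b2 and Nr1i3 all 3 control SHPC samples lay below every MH and BM-MC sample, and for Cyp2e1, Cyp1a2, Glul and Rhbg control SHPCs lay below both MH samples.

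Of the 5 pericentral members (Cyp2e1, Cyp1a2, Cyp2b2, Cyp2c11 and Cyp3a2), only Cyp2b2 passed the adjusted threshold between control SHPCs and MHs. At an unadjusted p under 0.05, 4 were lower and 1 (Cyp3a2) higher, beside 11% and 8.21% of all probes, with a list median of -0.77 beside -0.03 over all probes. Cyp2e1, which oxidises ethanol and paracetamol, had levels of 6.88 and 6.28 in MHs, of 5.26, 5.14 and 5.65 in control SHPCs and of 6.32, 6.04 and 5.41 in the BM-MC group. Control SHPCs lay below both MHs without overlap, whereas BM-MC replicate 3 fell inside the control range. The difference between control SHPCs and MHs was -1.23 (standard error 0.31, adjusted p = 0.13). Cyp1a2, which metabolises caffeine and arylamines, had levels of 5.23 and 4.92 in MHs, of 4.28, 4.26 and 4.37 in control SHPCs and of 4.52, 4.70 and 4.36 in the BM-MC group. Its difference of -0.77 (standard error 0.15, adjusted p = 0.068) passed the threshold only with an intensity trend (adjusted p = 0.017) or with array weights (adjusted p = 0.034), among the alternatives run. The other Cyp1a2 probe differed by -0.60, in the same direction.

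Other pericentral genes outside the P450 families lay on the same side. Of 8 tested, 7 were lower in control SHPCs than in MHs, though 0 passed the adjusted threshold. At an unadjusted p under 0.05, 6 were lower, beside 11% of all probes. Rhbg, an ammonium transporter, differed by -1.51 (adjusted p = 0.071), Slc1a2, a glutamate transporter, by -2.93 (adjusted p = 0.11) and Glul, glutamine synthetase, by -1.13 (adjusted p = 0.13). All 8 periportal genes were higher in control SHPCs, with a list median of 0.53, where 46.2% of all probes had a positive difference. At an unadjusted p under 0.05, 4 were higher, beside 8.21% of all probes, and 0 passed the adjusted threshold. Sds, serine dehydratase, showed the widest difference of that list at 1.78 (adjusted p = 0.081). The zone of the lobule from which the captured MHs came was not given in the sources used here.

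Cyp1a1, the most inducible target of Ahr, ran opposite to Cyp1a2. Its levels were -8.41 and -6.72 in MHs, where the probe was not well above background on either array. They were -4.11, -4.52 and -4.65 in control SHPCs and -5.78, -2.67 and -4.17 in the BM-MC group. Each SHPC sample lay above both MH samples. Because MH signals were at background, only a bound can be given, set by the dimmest signal well above background on each MH array: Cyp1a1 was at least 3.48-fold higher in control SHPCs (limma, adjusted p = 0.14) and at least 4.06-fold higher in the BM-MC group (adjusted p = 0.23) than in MHs. The latter bound was 2.38-fold without BM-MC replicate 2 and 6.99-fold without replicate 1. Cyp1a1 passed the filter on dim probes only through SHPC arrays, so that its test against MHs, also counted among the unadjusted higher members, is not independent of that filter. Cyp1b1, the third gene on the Ahr list, was close to background, at -5.22 and -6.60 in MHs, at -7.01, -5.33 and -5.15 in control SHPCs and at -5.08, -5.76 and -5.62 in the BM-MC group. All groups overlapped, with differences of 0.08 between control SHPCs and MHs and of 0.34 between the BM-MC and control groups (adjusted p = 0.96 and 0.75), and its other 2 probes were not tested.

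Of the 8 Cyp3a genes and pseudogenes tested, 0 passed the adjusted threshold between control SHPCs and MHs. At an unadjusted p under 0.05, 2 were higher (Cyp3a2 and Cyp3a18) and 2 lower (Cyp3a9 and Cyp3a62), beside 8.21% and 11% of all probes. Cyp3a2, a steroid 6-beta-hydroxylase predominant in adult males, had levels of -3.0 and -2.75 in MHs, of 0.56, 0.79 and 1.15 in control SHPCs and of -1.51, -0.42 and 2.73 in the BM-MC group. Every SHPC sample lay above both MHs, and the BM-MC samples lay on either side of the controls. The difference between control SHPCs and MHs, 3.71 (standard error 1.06), was the largest of the members measured above background in both groups, a 13.1-fold higher signal, with an adjusted p of 0.15. Without BM-MC replicate 3, which widens the spread shared in the fit, the adjusted p was 0.00555 for the same difference, and in a fit of only these 2 groups it was 0.0041. Within the first set of 4 arrays the difference was 3.55.

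Cyp3a18, another male-predominant member, followed the same order, at -0.39 and 0.46 in MHs, at 1.59, 1.63 and 1.98 in control SHPCs and at 0.50, 0.62 and 2.56 in the BM-MC group. Both MH samples lay below all SHPC samples, and BM-MC replicate 3 was the highest of the 8. Control SHPCs were 1.70 above MHs (standard error 0.60, adjusted p = 0.20), and without BM-MC replicate 3 the adjusted p was 0.037. The pseudogene Cyp3a85-ps was at -5.41 and -5.87 in MHs, at -4.28, -4.02 and -3.46 in control SHPCs and at -5.58, -5.10 and -2.36 in the BM-MC group. Its difference of 1.72 between control SHPCs and MHs had an adjusted p of 0.32, and of 0.044 without BM-MC replicate 3.

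Cyp3a9, a female-predominant member expressed also in brain, had a negative difference. Its levels were 4.75 and 3.88 in MHs, 2.04, 2.18 and 0.82 in control SHPCs and 4.34, 2.61 and 0.27 in the BM-MC group. Among the BM-MC samples the order was the reverse of that of Cyp3a2, with replicate 1 near the MHs and replicate 3 the lowest of all 8 samples. Control SHPCs differed from MHs by -2.64 (standard error 1.06, adjusted p = 0.24). Cyp3a62, the form of liver and intestine, was at -0.75 and -0.69 in MHs, at -1.41, -1.23 and -2.34 in control SHPCs and at -0.73, -0.74 and -1.25 in the BM-MC group. Its control samples were below both MHs, by 0.94 on average (adjusted p = 0.20).

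**Figure D3:**
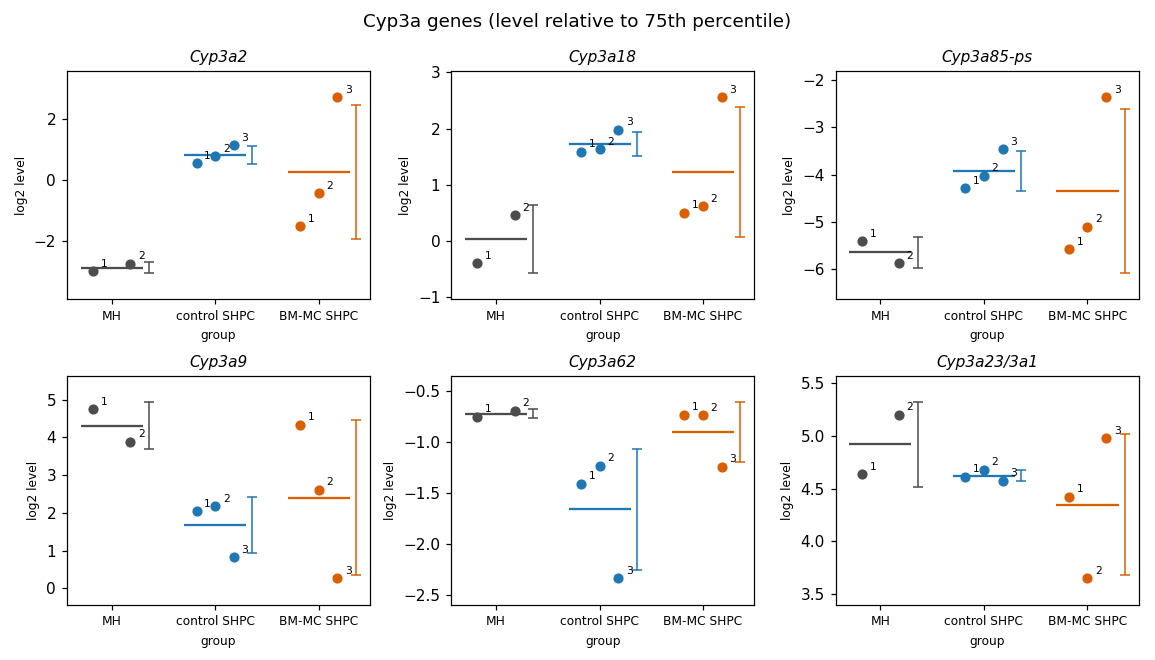
Each panel gives the log2 level of 1 Cyp3a gene by group, with points numbered by replicate, a line at the mean and a bar of 1 SD beside it. In BM-MC replicate 3, Cyp3a2 (2.73), Cyp3a18 (2.56) and Cyp3a85-ps (-2.36) were at the top of all samples, and Cyp3a9 (0.27) at the bottom.

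Cyp3a23/3a1, the main PXR-inducible form, did not separate the groups. It was at 4.64 and 5.20 in MHs, at 4.61, 4.68 and 4.57 in control SHPCs and at 4.42, 3.65 and 4.98 in the BM-MC group, and the groups overlapped. Cyp3a73 had its lowest level, 3.03, in the same sample as Cyp3a23/3a1, BM-MC replicate 2, beside a range from 3.93 to 4.74 in the other 7. Cyp3a71-ps was lowest in that sample as well, at -6.41. The other probe of Cyp3a23/3a1, whose annotation also lists Cyp3a18, differed by -0.06 between control SHPCs and MHs, in the same direction as the brighter probe (-0.30).

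In the RefSeq gene table of assembly GRCr8, Cyp3a18, Cyp3a73, Cyp3a2 and Cyp3a23-3a1 are entries 1, 2, 6 and 7 when the protein-coding genes of chromosome 12 are counted from Cyp3a18, while Cyp3a62 and Cyp3a9 are entries 118 and 122. The members lower in control SHPCs at an unadjusted p under 0.05, Cyp3a9 and Cyp3a62, were the distant pair. Of the near genes, Cyp3a2 and Cyp3a18 had positive differences, while Cyp3a23-3a1 (-0.30) and Cyp3a73 (-0.30) had negative ones, as did Cyp3a71-ps (-0.52), entry 5.

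Promoter windows from RefSeq (GRCr8, from 250 bases before the transcript start to 50 after it, 5′ to 3′ on the gene's strand) are shown for the 4 Cyp3a genes whose levels are set against each other. Capitals mark every match on either strand to AGGTCA or AGTTCA, half-sites that nuclear receptors such as PXR and CAR bind in pairs.

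Cyp3a2 (chr12:14343808-14344107, - strand): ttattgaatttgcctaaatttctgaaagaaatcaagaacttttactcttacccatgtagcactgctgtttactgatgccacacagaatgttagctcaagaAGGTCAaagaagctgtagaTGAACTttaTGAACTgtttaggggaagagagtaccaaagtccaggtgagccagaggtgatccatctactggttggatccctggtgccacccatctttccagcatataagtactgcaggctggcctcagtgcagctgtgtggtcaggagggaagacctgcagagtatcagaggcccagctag
Cyp3a23-3a1 (chr12:14398754-14399053, - strand): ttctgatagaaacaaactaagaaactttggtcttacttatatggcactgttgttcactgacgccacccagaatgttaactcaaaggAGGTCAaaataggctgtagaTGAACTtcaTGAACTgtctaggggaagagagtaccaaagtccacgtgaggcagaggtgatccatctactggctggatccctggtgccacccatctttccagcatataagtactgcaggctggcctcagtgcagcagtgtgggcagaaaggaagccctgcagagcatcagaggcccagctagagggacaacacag
Cyp3a18 (chr12:13994062-13994361, + strand): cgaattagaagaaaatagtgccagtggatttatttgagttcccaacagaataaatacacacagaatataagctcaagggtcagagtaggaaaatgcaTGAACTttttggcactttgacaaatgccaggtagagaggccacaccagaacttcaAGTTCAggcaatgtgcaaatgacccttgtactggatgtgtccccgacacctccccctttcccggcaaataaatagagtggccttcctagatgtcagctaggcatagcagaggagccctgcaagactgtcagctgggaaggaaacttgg
Cyp3a9 (chr12:21960111-21960410, - strand): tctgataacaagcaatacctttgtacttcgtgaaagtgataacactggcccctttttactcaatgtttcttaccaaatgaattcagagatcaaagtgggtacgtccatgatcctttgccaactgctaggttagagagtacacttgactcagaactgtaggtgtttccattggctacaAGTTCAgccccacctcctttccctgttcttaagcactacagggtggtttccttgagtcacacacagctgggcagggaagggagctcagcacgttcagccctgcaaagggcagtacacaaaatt

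Cyp3a2 and Cyp3a23-3a1 carried the same arrangement, 1 AGGTCA and 2 AGTTCA matches, and were identical at 209 of 287 bases (72.8%) when shifted by 13 bases. Their levels nevertheless differed in pattern, since Cyp3a2 lay 3.71 higher and Cyp3a23/3a1 0.30 lower in control SHPCs than in MHs. Cyp3a18 held 2 AGTTCA matches and Cyp3a9 held 1. AGGTCA occurred in 16.2% and AGTTCA in 14.5% of all 33469 promoter windows of this length. TTCNNNGAA (STAT5), ATTGAT (Onecut1) and GCGTG (Ahr), which were also searched on both strands and were present in 8.87%, 8.06% and 29.7% of windows, had no match in these 4, which says only that those letters are absent there. Matches are letters and not shown binding sites.

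The remaining comparison with MHs set the BM-MC group against them, and here no member passed. Limma called 0 of 49 member probes higher and 0 lower (adjusted p under 0.05), where 0.32% of all probes were called higher and 0.0173% lower. At an unadjusted p under 0.05, 2 member probes were higher and 6 lower, beside 7.33% and 5.95% of all probes, and the median difference was -0.22 beside 0.00 over all probes. The methods' t-test with Benjamini-Hochberg adjustment called 0 as well. Cyp2b2 was 1.22 lower than in MHs (standard error 0.37, adjusted p = 0.29), with BM-MC values from 0.50 to 1.22 below both MHs, and the difference ran from -1.85 without MH replicate 2 to -0.59 without MH replicate 1. Cyp1a2 was 0.55 lower (standard error 0.15, adjusted p = 0.26), and both Cyp2s1, a P450 of epithelia outside the liver, and Cyp2c22 lay below both MHs as well, by 1.13 and 0.89 (adjusted p = 0.31 and 0.26). With slide set as a block these became 0.0157 for Cyp2s1, which turned its direction, and -0.42 for Cyp2c22. Cyp3a2 was 3.14 higher (standard error 1.06, adjusted p = 0.31), a difference of 1.91 without BM-MC replicate 3. These groups share no set of arrays and are linked only through control samples, which lie in both sets, and with slide set as a block the median of the members was -0.34. The comparisons of either SHPC group with MHs share the 2 MH samples.

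**Figure D4:**
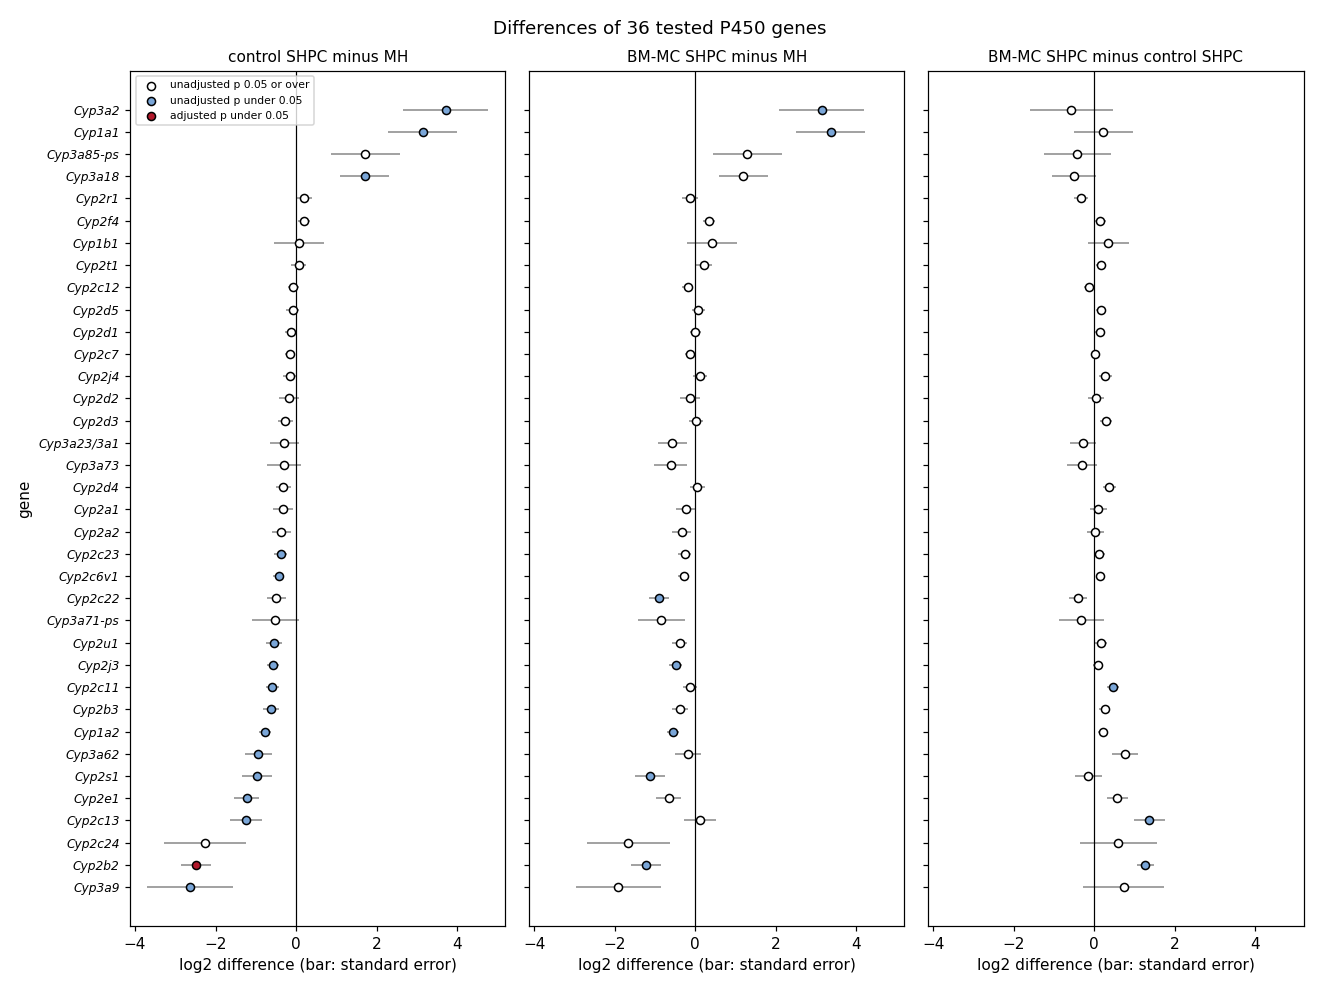
Points give the log2 difference of each of 36 tested genes in the 3 comparisons, ordered by the first, with bars of 1 standard error. A filled red point marks an adjusted p under 0.05, which Cyp2b2 alone reached (control SHPC minus MH, -2.49), and blue points mark an unadjusted p under 0.05.

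The BM-MC group was compared with control SHPCs to ask what transplantation changes in the clusters. No member passed the adjusted threshold. Limma called 0 of 49 member probes higher and 0 lower, where 0.0216% of all probes were called higher and 0% lower. At an unadjusted p under 0.05, 7 member probes of 5 genes were higher (14.3% of 49) and 0 lower, beside 10.7% and 5.92% of all probes, so that the share of members higher was close to that of all probes. The difference was positive for 35 of 49 member probes and the median was 0.15 beside 0.02 over all probes. This median depended on the scaling: with each array scaled to its median, the median of all probes moved to -0.17 and that of the members to -0.0394. Within the second set of 4 arrays (3 BM-MC samples against control replicate 3), 20 of 36 genes were higher, with a median of 0.05.

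Cyp2b2 came closest, with all 3 BM-MC samples above all 3 controls by at least 0.70 on the log2 scale. The difference was 1.27 (standard error 0.21, adjusted p = 0.12), or 2.41-fold, and 1.44 within the second set of arrays. It passed with array weights (adjusted p = 0.042), and its adjusted p ran from 0.042 to 0.36 over 21 alternatives. Nr1i3 was 1.11 higher (standard error 0.28, adjusted p = 0.18), and its other probe 1.08 higher. Cyp2e1 differed by 0.57 (adjusted p = 0.34), Cyp1a2 by 0.22 (adjusted p = 0.40) and Cyp3a62 by 0.76 (adjusted p = 0.30), all with overlapping groups. Within the second set of arrays these were 0.27, 0.16 and 1.43 in that order, and without control replicate 3 the difference of Cyp3a62 was 0.42. Differences of Cyp3a2 (-0.57, adjusted p = 0.80) and Cyp3a9 (0.73, adjusted p = 0.73) rested on single samples. Cyp3a2 moved from -0.57 to -1.80 without BM-MC replicate 3 and to 0.32 without replicate 1, and Cyp3a9 to 1.80 and -0.24, so that neither has a stable direction here.

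Among the sex-dependent members of family 2, Cyp2c13, a male-predominant steroid hydroxylase, showed the largest difference between the SHPC groups. Its levels were -0.60 and -0.60 in MHs, -1.66, -1.68 and -2.18 in control SHPCs and -1.33, -0.25 and 0.13 in the BM-MC group. All BM-MC samples lay above all controls, replicate 1 narrowly so, and the difference was 1.36 (standard error 0.38, adjusted p = 0.20). Cyp2c11, the major male form, was at -3.01 and -2.86 in MHs, at -3.60, -3.55 and -3.43 in control SHPCs and at -3.10, -3.30 and -2.80 in the BM-MC group. Its BM-MC samples also lay above the controls, by 0.46 on average (standard error 0.15, adjusted p = 0.25). Cyp2a2 showed no such separation, at 1.5 and 1.10, at 0.71, 0.75 and 1.34, and at 1.14, 0.71 and 1.03 in the same groups.

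The female-predominant Cyp2c12 was level throughout, at 6.96 and 6.86 in MHs, at 7.01, 6.75 and 6.77 in control SHPCs and at 6.68, 6.88 and 6.60 in the BM-MC group. Its other probe was 0.79 lower in control SHPCs than in MHs (adjusted p = 0.21) and 0.84 lower in the BM-MC group (adjusted p = 0.31), so that the 2 probes differ in size. Cyp2c7, a female-predominant retinoic acid hydroxylase, was at 7.29 and 7.10, at 7.10, 6.89 and 7.13, and at 6.97, 7.14 and 7.10. Of its 5 probes, 4 were higher in the BM-MC group than in controls, 3 of them at an unadjusted p under 0.05, but the brightest differed by 0.03 and the range was from -0.09 to 0.44. Cyp2a1 was at 4.16 and 3.73, at 3.45, 3.41 and 4.03, and at 3.96, 3.47 and 3.75 in the same groups, all overlapping. Between the SHPC groups, 3 of 5 male-predominant genes had a positive difference, 2 of them (Cyp2c13 and Cyp2c11) at an unadjusted p under 0.05, and 2 a negative one (Cyp3a2 -0.57 and Cyp3a18 -0.51), where 52.6% of all probes had a positive difference and 10.7% were higher at that p. Without BM-MC replicate 3 the Cyp3a18 difference was -1.17, and Cyp3a2 had no stable direction, as given above. Of 4 female-predominant genes 3 had a positive difference, and 0 had an unadjusted p under 0.05. On either list 0 passed the adjusted threshold, and the lists were not tested against each other.

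**Figure D5:**
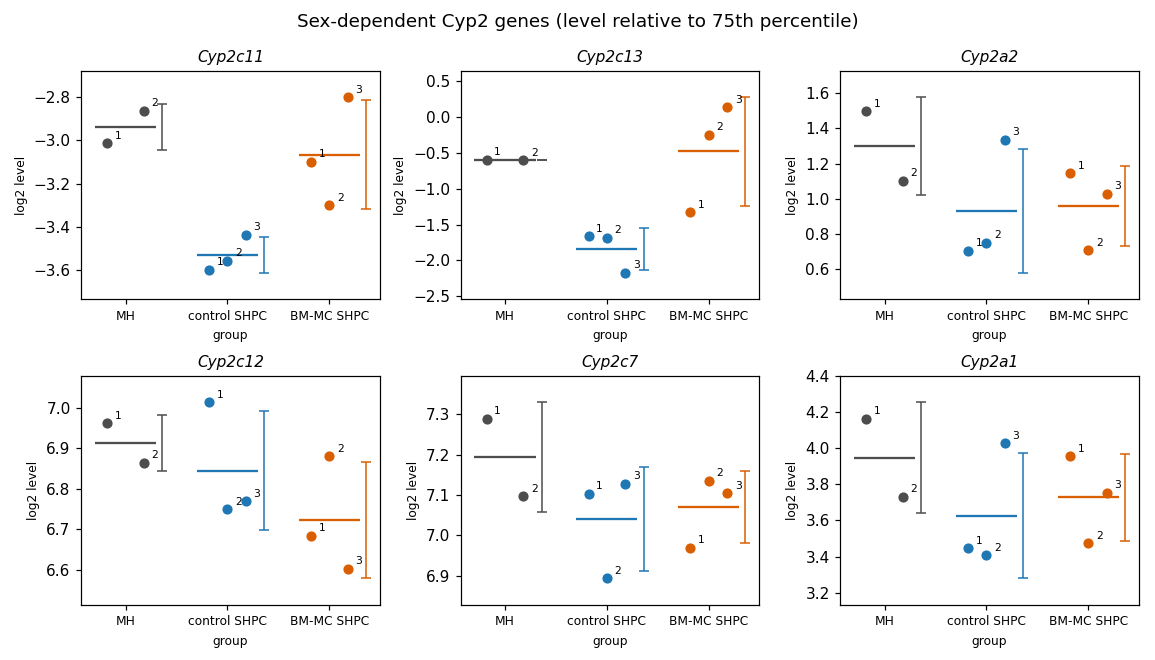
Each panel gives the log2 level of 1 sex-dependent Cyp2 gene by group, with points numbered by replicate, a line at the mean and a bar of 1 SD beside it. Cyp2c11 and Cyp2c13, both male-predominant, were lower in all 3 control SHPC samples than in the other 5, while Cyp2c12 stayed between 6.60 and 7.01 in all 8.

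The epoxygenase members, which turn arachidonic acid into vasoactive epoxides, lay lower in control SHPCs than in MHs without a call. All 5 tested had a negative difference, 3 of them (Cyp2c11, Cyp2c23 and Cyp2j3) at an unadjusted p under 0.05, where 11% of all probes were lower at that p and 46.2% had a positive difference. Cyp2c23 was at 6.99 and 6.73 in MHs, at 6.51, 6.37 and 6.55 in control SHPCs and at 6.60, 6.78 and 6.40 in the BM-MC group. Cyp2j3 was at 0.68 and 0.39, at -0.10, -0.08 and 0.05, and at 0.26, -0.05 and -0.06 in the same groups. All SHPC samples of Cyp2j3 lay below both MHs. Cyp2j4 overlapped, at 3.42 and 3.63, at 3.14, 3.29 and 3.67, and at 3.62, 3.72 and 3.58. Cyp2c24 scattered near background, well above it on 4 of 7 arrays, with levels of -4.10 and -3.15 in MHs, of -5.01, -4.94 and -7.70 in control SHPCs and of -3.80, -6.54 and -5.51 in the BM-MC group.

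Cyp2c6v1, another phenobarbital-inducible member, was at 6.63 and 6.25 in MHs, at 5.97, 6.06 and 5.96 in control SHPCs and at 6.18, 6.22 and 6.05 in the BM-MC group. Its 3 probes were all lower in control SHPCs than in MHs at an unadjusted p under 0.05, by 0.44 to 0.70. The 5 Cyp2d genes, whose human relative handles many antidepressants and opioids, varied little, counting Cyp2d1 and Cyp2d5 although their probes cannot be told apart. Their differences lay between -0.32 and -0.09 for control SHPCs against MHs and between 0.05 and 0.37 for the BM-MC against the control group, and 0 of 5 had an unadjusted p under 0.05 in either. Cyp2b3, which does not respond to phenobarbital as Cyp2b2 does, was 0.63 lower in control SHPCs than in MHs (adjusted p = 0.17). The 9 genes without a tested probe (Cyp2a3, Cyp2ac1, Cyp2b12, Cyp2b15, Cyp2b21, Cyp2g1, Cyp2j10, Cyp2j16 and Cyp2w1) were not well above background on more than 1 of the 7 arrays. Cyp2b15 and Cyp2b21 were so on 1 array, while Cyp1b1 and Cyp2c24, well above background on 4 arrays, stood just inside the filter.

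The enzymes that serve the P450s gave no called difference. Of 6 redox partners, 5 were lower in control SHPCs than in MHs, with Por at -0.31 (adjusted p = 0.33). At an unadjusted p under 0.05, 1 of these was lower, beside 11% of all probes. Of 8 heme synthesis genes, 4 were lower, 2 of them at an unadjusted p under 0.05, with a list median of -0.05. Alas1 was at 6.47 and 5.99 in MHs, at 5.29, 5.29 and 4.40 in control SHPCs and at 5.58, 5.51 and 5.06 in the BM-MC group. All SHPC samples lay below both MHs, with a difference of -1.23 for control SHPCs (adjusted p = 0.13), and Fech, which inserts iron into heme, differed by -0.53 (adjusted p = 0.18).

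Of 12 hepatocyte transcription factors, Onecut1, which regulates Cyp2c12 and other liver genes, rose in the BM-MC group against controls and against MHs, by 2.29 (adjusted p = 0.023) and by 1.79 (adjusted p = 0.022). The other 11 did not pass in any comparison. Hnf4a differed by -0.04 between the SHPC groups (adjusted p = 0.91). Of 10 genes of the growth hormone axis, Cish, a STAT5 target that dampens receptor signalling, was higher in the BM-MC group than in MHs by 1.73 (adjusted p = 0.026) and than in controls by 1.40 (adjusted p = 0.070). Bcl6, a repressor with male-predominant expression, was lower in the BM-MC group than in controls by 0.91, at an adjusted p of 0.22. Socs2 was higher by 1.44 (adjusted p = 0.17) and Ghr by 0.33 (adjusted p = 0.25) between the same groups. At an unadjusted p under 0.05, 3 of these 10 genes were higher and 1 lower, beside 10.7% and 5.92% of all probes. Of 11 inflammatory regulators, which can lower P450 expression, 0 passed in any comparison.

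Markers of division and of other cells moved with these comparisons. All 8 proliferation genes were higher in control SHPCs than in MHs, with Mki67 higher by 2.92 (adjusted p = 0.0033). Of these, 5 passed the adjusted threshold, beside 0.917% of all probes called higher. All 8 proliferation genes were lower in the BM-MC group than in control SHPCs, with a median of -0.997. At an unadjusted p under 0.05, 7 were lower, beside 5.92% of all probes, and 0 passed the adjusted threshold. Their summed level was 0.63 to 1.05 in MHs, 2.59 to 3.29 in control SHPCs and 1.69 to 2.45 in the BM-MC group. Of the 6 Kupffer cell markers, 5 were lower in control SHPCs than in MHs, with summed levels of 5.53 to 5.70, 4.65 to 5.21 and 5.0 to 5.49 in the 3 groups in that order. Endothelial markers (6 of 6 tested) summed to 3.85 to 4.11, 3.68 to 3.87 and 3.89 to 4.03, and stellate cell markers (6 of 6) to 1.81 to 1.84, 1.09 to 1.26 and 1.07 to 1.81. Of the 6 endothelial markers, 5 were lower in control SHPCs than in MHs, 2 at an unadjusted p under 0.05. In the BM-MC group against controls, 5 of 6 endothelial and 4 of 6 Kupffer markers were higher, 2 and 1 at that p, beside 10.7% of all probes. By gene, stellate markers went both ways between control SHPCs and MHs, with 4 higher and 2 lower, 2 of each at an unadjusted p under 0.05. Cholangiocyte markers (5 of 5) summed to -1.81 to -1.50, -1.26 to -1.12 and -1.25 to -0.88. By gene, 5 of 5 were higher in control SHPCs than in MHs, and 4 of 5 were lower in the BM-MC group than in control SHPCs (median -0.43), with Sox9 the exception at 0.62. Erythroid markers (5 of 5) summed to 3.71 to 4.74, 4.35 to 6.12 and 3.32 to 3.79, and granulocyte markers (3 of 5, Mpo and Ngp not passing) to -1.34 to 0.59, 0.17 to 0.65 and -1.46 to -1.06. All 3 granulocyte markers were lower in the BM-MC group than in control SHPCs at an unadjusted p under 0.05 (median -1.46), as were 3 of the 5 erythroid markers, and all 5 erythroid markers had a negative difference (median -1.30). The part of division or of other cells in the P450 differences was not tested.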

How the data were processed

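Cells cut by LMD were labelled in 1 colour and hybridised to Agilent rat arrays. The authors deposited scanner intensities, the processed signal of Feature Extraction 10.7 (per the labels), with background already subtracted and no scaling between arrays. The array annotation is on rn4, and 47 of 61 member probes were named by the RefSeq table of GRCr8. Signals were set to log2 minus the 75th percentile of non-control spots of each array, without spots marked as outliers, and repeated spots of a probe were averaged. Limma 3.58.1 (R 4.3.3) tested the 23111 probes that passed the filter on dim spots (3 of 7 arrays), adjusting p over all of them by Benjamini-Hochberg. The SHPC groups were compared on 6 samples, and MHs in 1 fit of all 8. The fit was tested on simulated data. The number of arrays limits precision. Genes with several probes are given by the brightest tested one. Values in every sample are given for induced, sex-dependent, pericentral and epoxygenase members and for the 6 largest differences of each comparison. The members and gene lists were chosen with earlier results of these data known. Whether replicate numbers pair samples is not known, and the main fits did not use them (closing section). Alternatives changed scaling, background, filter, model, samples and probe summary.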

Additional observations from a re-analysis of the deposited data

How the results depend on the processing

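Between the BM-MC and control groups, 0 members were called in all 21 alternatives, except 1 higher (Cyp2b2) with array weights. The median difference of members, 0.15, was -0.0394 with median scaling and 0.0419 when slide set was a block, and it ran from 0.12 to 0.19 when single samples were left out. Between control SHPCs and MHs the 1 member called lower became 0 without the filter on dim probes, with a replicate block, when slide set was a block, in a fit of only these groups (1 higher instead) and by the methods' t-test after adjustment, 3 with an intensity trend and 2 with array weights. Leaving out 1 sample gave 0 to 1 lower and 0 to 3 higher, 3 without BM-MC replicate 3, with medians from -0.51 to -0.26. Between the BM-MC group and MHs 0 were called in all 23 alternatives, and the median of -0.22 was -0.42 with median scaling, -0.34 when slide set was a block and from -0.33 to -0.10 when single samples were left out. Cyp2s1 differed by 0.0157 when slide set was a block, against -1.13. The causes were not tested.

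At an unadjusted p under 0.05, the methods' t-test gave 7 members higher and 0 lower between the SHPC groups, 4 and 12 for control SHPCs against MHs (3 and 19 by limma) and 0 and 3 for the BM-MC group against MHs (2 and 6 by limma). Over all alternatives these counts ran from 2 to 12 higher and 0 to 3 lower, from 1 to 4 and 6 to 21, and from 0 to 6 and 1 to 15. Shares of all probes under these settings are not given here, so that the counts cannot be set against them. Whether the replicate numbers pair samples is not known. Same-numbered control and BM-MC samples correlated at 0.078 to 0.17 in their deviations, and differently numbered ones at -0.15 to 0.082. Of the 3 controls, 2 correlated best with their own number. With the replicate block Cyp2b2 differed by -2.33 between control SHPCs and MHs, and no other call of a member changed. Dim probes (Cyp1a1, Cyp1b1, Cyp2c24 and the pseudogenes) are limited by signal over background.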
